A study of Mus musculus with 20 samples.

Results

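The data on 10 genes of the kidney tubule (Umod, Slc12a3, Slc27a2, Slc3a1, Pdzk1, Napsa, Calb1, Folr1, Spp1 and Kap) come from a transcriptome-wide table of candidate 5-methylcytosine (m5C) sites in mouse mRNA. Every row of the table that carried one of these 10 gene symbols was taken, which gave 13 sites out of 32378 listed sites, 27803 of which carry a gene symbol (10240 symbols in all). A site was in the table because the authors marked it as passed in at least 1 of 20 libraries, so the 13 sites were chosen by their measured level in the passing library, and that level is given here as a description. The table came from mRNA bisulfite sequencing, in which unmethylated cytosine is converted and read as T while m5C stays C. For each site and library it gives the coverage, the number of unconverted (C) reads and their ratio, here called the level.

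The libraries came from kidney, small intestine, liver, spleen and heart of Nsun6-KO mice and of wild-type (WT) mice, with 2 libraries for each tissue and genotype. The KO mice carry a CRISPR/Cas9 deletion of exons 3 and 4 of Nsun6 in a C57BL/6J background, in every cell of the body. Per the study's methods, tissues were snap-frozen from female mice of 8 weeks, and mRNA was enriched and converted before library construction. Nothing in the sources ties the 2 libraries of a tissue and genotype to different animals, so the tests below measure only the spread between libraries. Each tissue was sequenced as bulk RNA, in which fewer cells of a type and less RNA per cell cannot be told apart.

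Nsun6 is an RNA methyltransferase that places m5C on mRNA, mostly at the first cytosine of the motif CTCCA, and its paralog Nsun2 acts on a different set of mRNA and tRNA cytosines. The kidney tubule is built from segments with their own transporters: the proximal tubule reclaims most of the filtered solutes and protein, the thick ascending limb and the distal convoluted tubule adjust salt, and the collecting duct adjusts water. Slc27a2, Slc3a1, Pdzk1, Folr1, Napsa and Kap are genes of the proximal tubule, Umod is made by the thick ascending limb, and Slc12a3 and Calb1 mark the distal convoluted and connecting tubule. Spp1 encodes osteopontin, a secreted phosphoprotein of tubule epithelium and of many other cells.

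The mRNA sequence around each listed cytosine is shown because the study reports that Nsun6 prefers the motif CTCCA. The study defined Nsun6-dependent sites by their levels in WT and KO, not by the motif. Each line gives 21 bases of the transcript, 5′ to 3′, from GENCODE M21 on mm10, with the listed cytosine and the 4 bases after it in capitals.
Slc27a2 upstream: ttttaccacgCCAGCagtata
Slc27a2 downstream: ccgcagaaacCAAATgaccgg
Slc3a1 upstream: actggcggacCGGAGactcct
Slc3a1 downstream: gagatggccaCCCAGaacatc
Pdzk1: gaaaactatcCAAGGtaaaaa
Folr1: tcaccttctaCTTCCccacat
Napsa upstream: ttcagtgttcCAAGAcgccaa
Napsa downstream: tgttgggcttCCAAGccttgg
Kap: gaattagtttCAATCaataaa
Umod: aagcagaaaaCCTGGtgtggc
Slc12a3: agaccctgtcCCAGGacctca
Calb1: tcgatgccagCAACTgaagtc
Spp1: ccacagaatgCTGTGtcctct
None of the 13 windows held CTCCA from the listed cytosine, a motif found at 302 of the listed sites (0.933%). None held CNGGG from the listed cytosine either, against 1437 listed sites (4.44%). Both were read on the transcribed strand only and do not overlap each other. No member site had another listed site within 50 bases, whereas 14.5% of all listed sites did. Of the 13 sites, 11 lay in coding sequence and 2 in a 3′ UTR. Within 10 bases of an exon junction lay 5 of the 13 sites (Slc27a2 downstream, Slc3a1 upstream, Pdzk1, Spp1 and Kap), against 7.78% of the 27755 listed sites in exons. These shares describe 13 sites, and no test was made of them.

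Library depth over the listed sites ran from 1230665 to 4640168 reads, and coverage is also given below as reads per 1000000 of these reads (rpm). Kidney KO replicate 2 stood apart from the other kidney libraries: 3.64% of its reads over listed sites were unconverted, against 0.603% to 0.673% in the other 3, and 3303 sites passed in it, against at most 745. Of 13 tubule markers, 10 had a listed site (9 members and Lrp2), while Slc34a1, Miox and Aqp2 had none. The 10 markers summed to 18950 to 23347 rpm in KO kidneys and 15079 to 17980 rpm in WT kidneys. As 9 of the 10 are members, this sum is a description and no independent check of the tissue. The adrenal markers Star, Cyp11a1, Cyp11b1, Cyp11b2 and Cyp21a1 had no listed site, so their reads could not be seen and adrenal tissue was not checked. Intervals given below are exact Clopper-Pearson 95% intervals, and where no C read was seen the upper limit is the level that 3 reads would give; reads carry no molecular identifiers, so both cover counting error only.

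At 11 of the 13 sites almost no kidney read stayed unconverted, and the exceptions were Napsa upstream and Kap. The 13 sites were deeply read in kidney. Together they held 116013 and 40602 reads in the KO kidneys and 27220 and 55331 reads in the WT kidneys, that is 25002 and 21100 rpm in KO and 21812 and 17013 rpm in WT. All 13 sites had a value in 3 kidney libraries and 12 in WT replicate 1, where Kap was missing. Outside kidney, 80 of the site and library combinations had a value. Slc27a2, Slc3a1 and Pdzk1, which enterocytes or hepatocytes also express, were read in all 8 small intestine and liver libraries, and Napsa was read in all 4 spleen libraries.

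**Figure D1:**
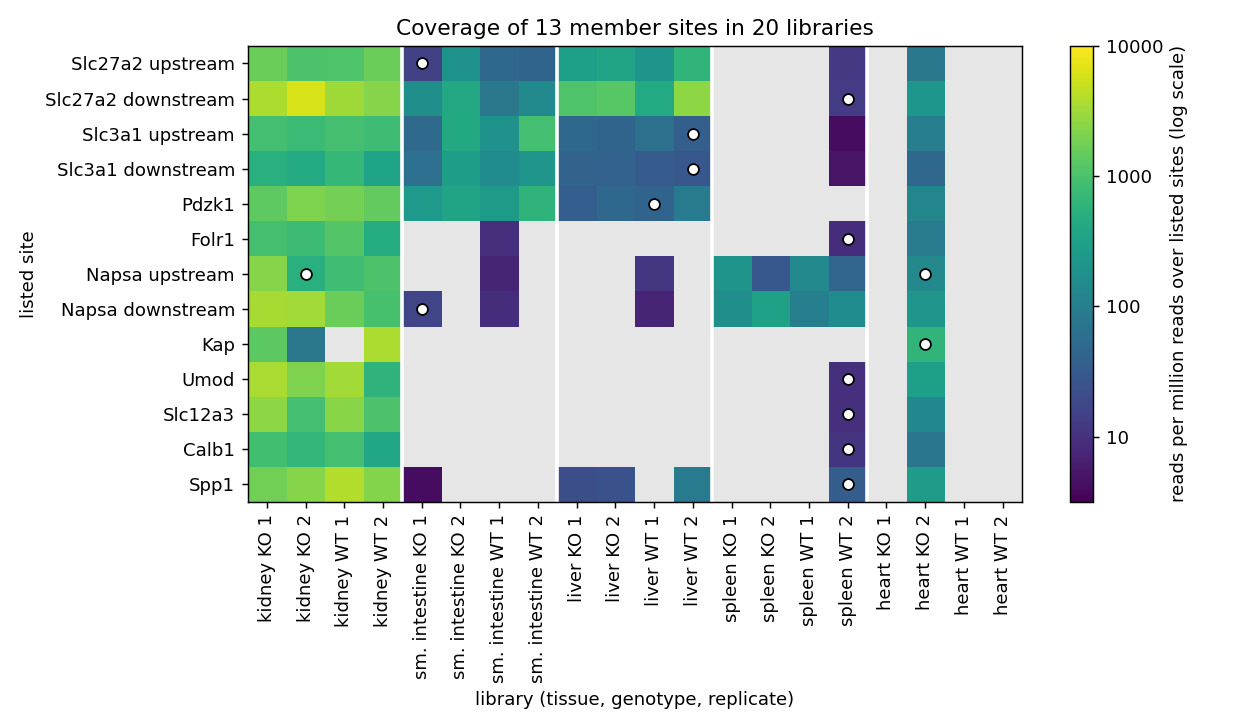
Coverage of the 13 listed sites (rows) in the 20 libraries (columns; KO left of WT in each tissue), as reads per 1000000 reads over listed sites on a log colour scale. Grey cells have no value, and white dots mark the 14 site and library combinations that the authors marked as passed; 13 of the dots lie outside kidney, and heart KO replicate 2 holds a value at all 13 sites.

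Of the 13 sites, 12 were passed in exactly 1 library, as were 97.1% of all listed sites, and Napsa upstream was passed in 2. Of the 14 passing values, 5 were in KO and 9 in WT libraries, and 11 rested on fewer than 100 reads. In a kidney library 1 of the 13 sites was passed, and kidney was the tissue in which these genes were read most deeply. Among all listed sites 13.2% were passed in a kidney library, and among the 62 listed sites with at least 1000 reads in all 4 kidney libraries, 11 of which are member sites, 5 were (8.06%). The 13 member sites did not stand apart from the deeply read sites in this.

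At 11 of the sites, all but Napsa upstream and Kap, levels in kidney were near the conversion background. Summed over these 11 sites, 63 of 204739 kidney reads were unconverted (0.0308%), and 23 of their 44 kidney values had no C read at all. The nonconversion rate that the authors list beside each member gene was 0.013% to 0.080% in the kidney libraries, with a median of 0.034%. The highest kidney level among the 11 sites was 0.103%, at Umod in WT replicate 2 (2 of 1935 reads). The level in the library that passed the site was 10.5% or more at each of them.

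**Figure D2:**
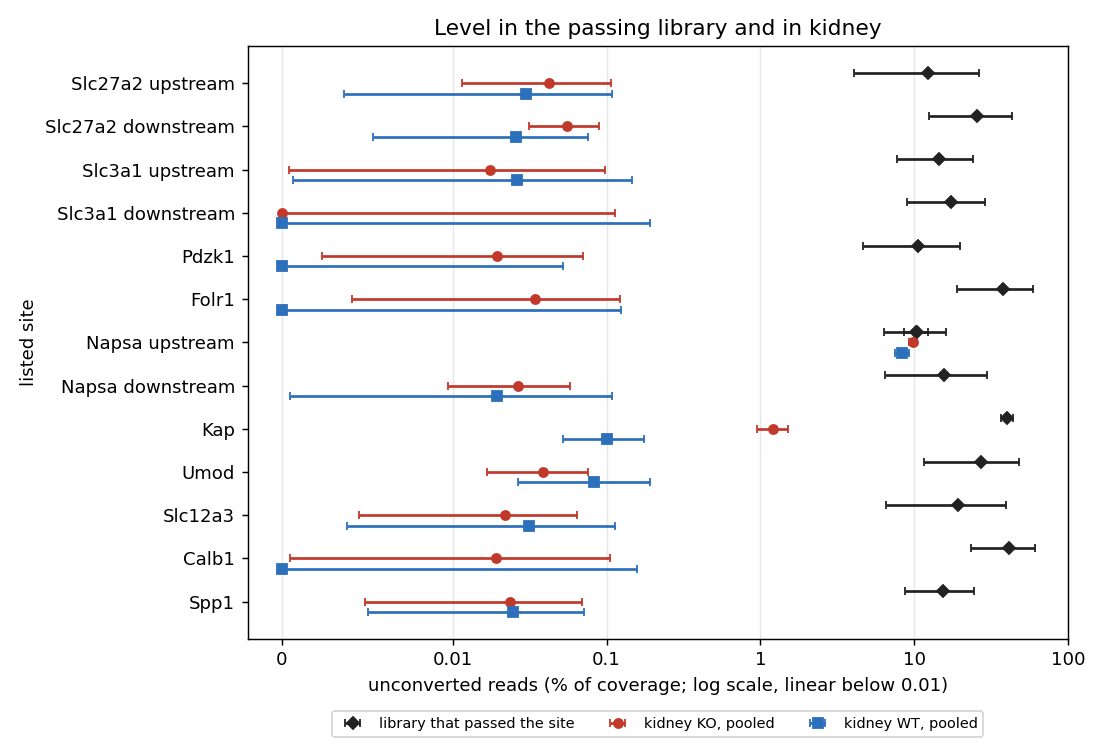
Level of each site, as unconverted reads in percent of coverage (log axis, linear below 0.01), in the library or libraries in which it was passed (diamonds), in the 2 KO kidney libraries pooled (circles) and in the WT kidney libraries pooled (squares; 1 library for Kap), with 95% Clopper-Pearson intervals. Napsa upstream lies near 10% in every group shown, Kap reaches 39.9% in the passing library against 1.21% in KO kidneys and 0.10% in WT kidneys, and the kidney levels of the other 11 sites stay at or below 0.0823%.

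Slc27a2, a fatty acid transporter and very long-chain acyl-CoA synthetase of proximal tubule and liver, had 2 listed sites. The upstream site (chromosome 2, position 126561713, plus strand, coding sequence, exon 2 of 10) was passed in small intestine KO replicate 1 at 12.2% (5 of 41 reads, 4.08% to 26.2%). The other 3 small intestine libraries had 0 C reads of 588, and kidney had 6 of 16193 (0.0371%). The downstream site (position 126574706, coding sequence, exon 5 of 10) lies 4 bases from an exon junction and was the most deeply read of the 13. It had 16 of 17334 and 0 of 11683 unconverted reads in KO kidneys, against 1 of 3922 and 2 of 7634 in WT kidneys. KO replicate 1 was therefore the highest of the 4 at 0.0923% and KO replicate 2 the lowest, so the genotypes overlapped. Spleen WT replicate 2 passed this site at 25.7% (9 of 35 reads), while 8 small intestine and liver libraries held 1 C read, in liver KO replicate 2 (1 of 1777).

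Slc3a1, the heavy subunit of the renal cystine transporter, had both of its sites passed in the same library, liver WT replicate 2. The upstream site (chromosome 17, position 85059726, plus strand, coding sequence, exon 8 of 10) had 12 of 83 unconverted reads there, or 14.5% (7.70% to 23.9%). The downstream site (position 85064106, 3′ UTR, exon 10 of 10, 30 bases past the stop codon) had 11 of 64, or 17.2% (8.90% to 28.7%). In the other 3 liver libraries the same sites had 0 of 251 and 0 of 187 C reads. Kidney held 2 of 9516 reads at the upstream site and 0 of 5193 at the downstream site, and the 4 small intestine libraries held none. The gene Prepl overlaps the downstream site on the opposite strand, and the libraries were made with a strand-specific kit.

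Pdzk1, a PDZ-domain scaffold of the brush border that holds transporters at the membrane, had 1 site (chromosome 3, position 96851737, plus strand, coding sequence, exon 3 of 9, 3 bases from a junction). It was passed in liver WT replicate 1 at 10.5% (8 of 76 reads, 4.66% to 19.7%), just above the lowest passed level in the whole table, 10%. The other liver libraries had 0 of 325 C reads and kidney had 2 of 17332, both in KO replicate 1. Folr1, the folate receptor of the proximal tubule brush border, had a site (chromosome 7, position 101858695, minus strand, coding sequence, exon 4 of 4) that spleen WT replicate 2 passed at 37.5% with 9 of 24 reads. Kidney held 2 C reads of 8842 at this position, again both in KO replicate 1.

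Napsa, which encodes the aspartic protease napsin A of kidney and lung, held the only site with a steady level in kidney. The upstream site lies on chromosome 7 at position 44585731, plus strand, in coding sequence of exon 8 of 9 and 17 bases from a junction. It had 1043 of 10716 unconverted reads in KO replicate 1, or 9.73% (9.18% to 10.3%), and 10.3% of 1008 reads (8.51% to 12.4%) in KO replicate 2. In WT kidneys it had 92 of 1045 and 276 of 3374, or 8.80% (7.16% to 10.7%) and 8.18% (7.28% to 9.16%). Both KO libraries were above both WT libraries, by less than the counting intervals of the shallower libraries. How often all kidney sites separate in this way was not counted. Over the kidney sites that met the study's level criteria in either genotype, the KO mean was higher at 63.2% and lower at 36.8%. KO replicate 2 was marked as passed and KO replicate 1, at 9.73% with over 10 times its reads, was not.

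The Napsa upstream level averaged 10.0% ± 0.413 in KO kidneys and 8.49% ± 0.441 in WT kidneys (SD, n = 2 each), and the difference of 1.53 percentage points was not called by the replicated tests. Among the 209 kidney sites that met the study's level criteria in either genotype, it had an adjusted p of 0.711 by edgeR's quasi-likelihood test on unconverted and converted reads, and 0.882 by limma. Neither tool called any of the 209 sites in either direction (0% called), with 16 at an unadjusted p under 0.05 in edgeR. Without kidney KO replicate 1, which leaves KO replicate 2 as the lone KO library, edgeR called 1733 of the 1832 sites that then met the criteria, and Napsa upstream was not called. Over all 9767 kidney sites with enough reads, Fisher's exact test on reads summed over the libraries gave Napsa upstream an adjusted p of 0.0337. That test treats every read as a replicate, and it called 1391 of these sites in all. The difference was between 1.22 and 1.85 points when each kidney library was left out in turn. Kidney KO replicate 2, 1 of the 2 KO libraries compared, is also 1 of the 2 libraries through which the site was listed.

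In spleen, the other tissue in which this Napsa site was read in all libraries, the level was far lower than in kidney. It had 2 of 551 and 0 of 79 unconverted reads in KO spleens, and no unconverted read in WT spleens, at 281 reads in replicate 1 and fewer in replicate 2. The upper limits were 1.30% and 3.80% in KO and 1.07% and 2.59% in WT, all below the lowest kidney level of 8.18%. Spleen coverage of the site was 28.2 to 208 rpm, against 524 to 2309 rpm in kidney. The antisense gene Gm15396 overlaps both Napsa sites. The difference between the tissues was not tested, since the site was listed through a kidney library.

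The second Napsa site, downstream on chromosome 7 at position 44586597 (coding sequence, exon 9 of 9), showed none of this in the same kidney libraries. It had 6 of 16384 and 0 of 6239 C reads in KO kidneys, and 1 of 2051 and 0 of 3089 in WT kidneys. Small intestine KO replicate 1 passed it at 15.6% on 7 of 45 reads. All 4 spleen libraries, with 204 to 889 reads each, had no C read there.

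**Figure D3:**
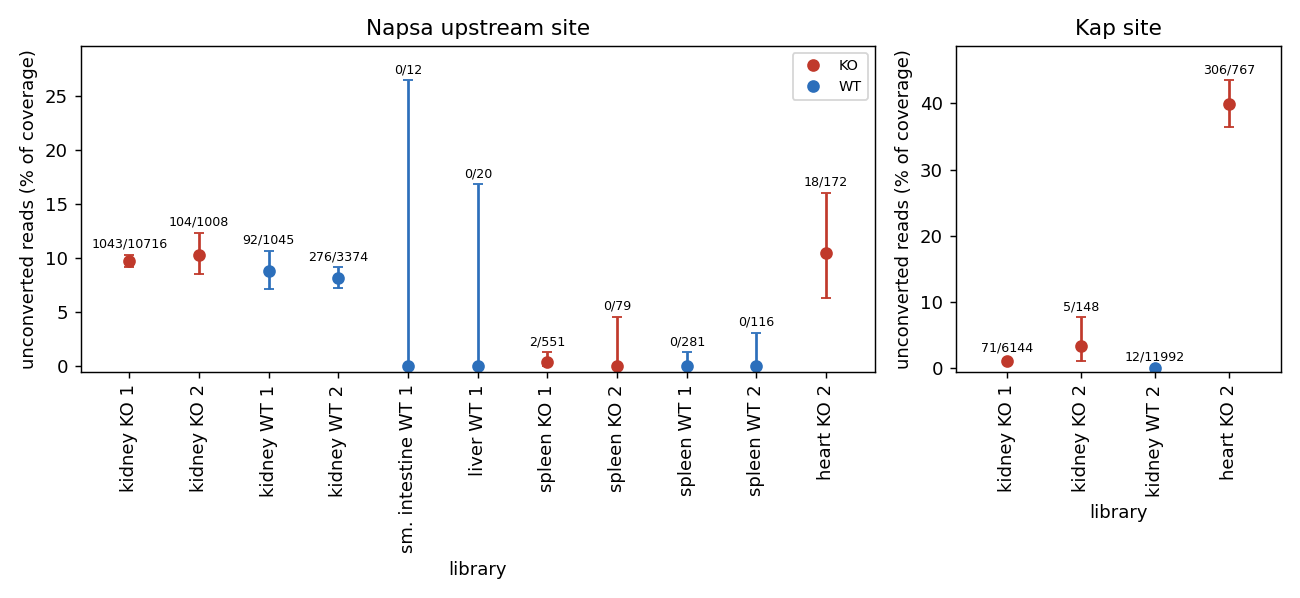
Level of the Napsa upstream site (left) and the Kap site (right), as unconverted reads in percent of coverage, in each library with a value, with 95% Clopper-Pearson intervals and the unconverted and total reads above each point; KO is red and WT is blue. The 4 kidney libraries and heart KO replicate 2 lie between 8.18% and 10.5% at Napsa upstream, and at Kap heart KO replicate 2 lies at 39.9%, above the 3 kidney values.

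Kap, the kidney androgen-regulated protein gene of proximal tubule cells, varied most among kidney libraries. Its site (chromosome 6, position 133852091, minus strand, coding sequence, exon 2 of 4) lies 3 bases from an exon junction. Coverage was 6144 and 148 reads in KO kidneys (1324 and 76.9 rpm), whereas WT replicate 1 had no value and WT replicate 2 had 11992 reads (3687 rpm). Libraries of the same genotype thus differed by a larger factor than at any other member site, and Kap entered no test over all 4 libraries because it lacked a value in WT replicate 1. Without that library its coverage had a log2 fold change of -2.90 ± 1.27 (SE), with an unadjusted p of 0.0437 and an adjusted p of 0.996 by edgeR, where WT replicate 2 alone stands for its genotype and is assumed to vary like the KO libraries. The level was 1.16% (71 of 6144) and 3.38% (5 of 148) in KO kidneys, and 0.10% (12 of 11992) in the WT kidney that was read. Heart KO replicate 2, which passed the site, had 306 of 767 reads unconverted, or 39.9% (36.4% to 43.5%).

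Umod encodes uromodulin, the most abundant protein of normal urine, and its site (chromosome 7, position 119463202, minus strand, exon 11 of 11) lies in the 3′ UTR, 18 bases past the stop codon. Unconverted reads were 8 of 16545 and 0 of 4111 in KO kidneys, against 3 of 4139 and 2 of 1935 in WT kidneys. These levels of 0% to 0.103% overlap in their intervals. Spleen WT replicate 2 passed the site at 26.9% on 7 of 26 reads (11.6% to 47.8%), which is 0.407% of the mean kidney coverage in rpm. The gene Gm44588 overlaps this site on the opposite strand.

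The distal tubule genes followed the same pattern. Slc12a3, the thiazide-sensitive sodium chloride cotransporter, had a site in its last exon (chromosome 8, position 94365889, plus strand, coding sequence, exon 25 of 25) with 3 of 11945 and 0 of 1738 unconverted reads in KO kidneys, and 2 of 2951 and 0 of 3411 in WT kidneys. Spleen WT replicate 2 passed it at 19.2% (5 of 26). Calb1, the calcium-binding protein calbindin, had 1 C read in 7611 over the 4 kidney libraries at its site (chromosome 4, position 15895495, plus strand, coding sequence, exon 4 of 11), in KO replicate 1. In spleen WT replicate 2 the site had 12 of 29 reads unconverted (41.4%), the highest passed level of the 13 sites, and the nonconversion rate listed for Calb1 in that library was 0.672%, against 0.020% to 0.053% in kidney. Spp1 (chromosome 5, position 104438230, plus strand, coding sequence, exon 5 of 7, 4 bases from a junction) was passed in the same spleen library at 15.4% (14 of 91), with 3 of 12721 C reads in KO kidneys and 3 of 12220 in WT kidneys.

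No member site was called different between the genotypes in kidney, where 12 of the 13 sites had at least 20 reads in all 4 libraries. In edgeR's quasi-likelihood test over 9767 sites, 0% were called lower and 0% higher in KO, and the adjusted p was 1 for each of the 12. None of the 12 had an unadjusted p under 0.05, against 5 of the 9767, and limma called none (adjusted p of 0.988 to 0.998). With so few of all sites under 0.05, the lack of calls does not show that the levels were equal. Besides Napsa upstream, the WT mean was at most 0.0879% (Umod), so a loss in KO could not have been seen at those sites. The KO mean was below the WT mean at 5 of the 12 sites, above it at 6 and equal at 1, with a median difference of 0.00392 percentage points against 0 over all sites tested. Besides Napsa upstream, the differences spanned -0.0637 points at Umod to 0.0231 points at Folr1.

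Outside kidney, enough reads for a comparison of the genotypes were present at 5 member sites in each of small intestine and liver, at 2 in spleen and at none in heart. None was called by edgeR or limma, and none had an unadjusted p under 0.05 in either. Over all sites tested in the same tissue, edgeR called 0.0135% of 7414 lower in KO small intestine, 0.0204% of 4903 lower in KO liver and 0.0087% of 11491 lower in KO spleen, and 0% higher in each. The widest differences were those that the passing library itself set: both liver KO means were 0% at the Slc3a1 sites, against 7.23% and 8.59% in WT livers, where replicate 2 alone held C reads. Without that library both differences were 0.

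Coverage itself was compared between the genotypes with 1 site per gene, the most deeply read in kidney, as a stand-in for the amount of mRNA, and edgeR called 0% of 6196 genes in either direction. Napsa had the largest difference among the 9 member genes tested: 3531 and 3242 rpm in KO kidneys, against 1644 and 950 rpm in WT kidneys at its downstream site, a log2 fold change of 1.27 ± 0.82 (SE). Both KO libraries were above both WT libraries, and how often all genes separated in this way was not counted. At the upstream site of the same gene, KO had 2309 and 524 rpm against 837 and 1037 rpm in WT, and there the genotypes overlapped. The ratio of downstream to upstream reads was 1.53 and 6.19 in KO kidneys and 1.96 and 0.916 in WT kidneys, so sites of one transcript did not keep a fixed ratio between libraries.

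Slc27a2 was also read more in both KO libraries, with 3736 and 6071 rpm in KO kidneys and 3143 and 2347 rpm in WT kidneys at its downstream site, a log2 fold change of 0.70 ± 0.87. At its upstream site the genotypes overlapped. Umod had 0.56 ± 0.88. Spp1, with 1771 and 2340 rpm in KO kidneys and 3924 and 2252 rpm in WT kidneys, had -0.69 ± 0.83. Calb1, Folr1, Slc12a3, Pdzk1 and Slc3a1 lay between -0.24 and 0.18. None of the 9 genes was called by edgeR (adjusted p of 1.00 for each, rounded) or DESeq2, and none had an unadjusted p under 0.05 in edgeR; over all genes tested such a p was seen for 39 lower and 160 higher in KO. Umod rested on 1 library: WT replicate 2 had 595 rpm, against 3317 rpm in WT replicate 1 and 3566 and 2136 rpm in KO kidneys, and without it the log2 fold change was -0.08.

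**Figure D4:**
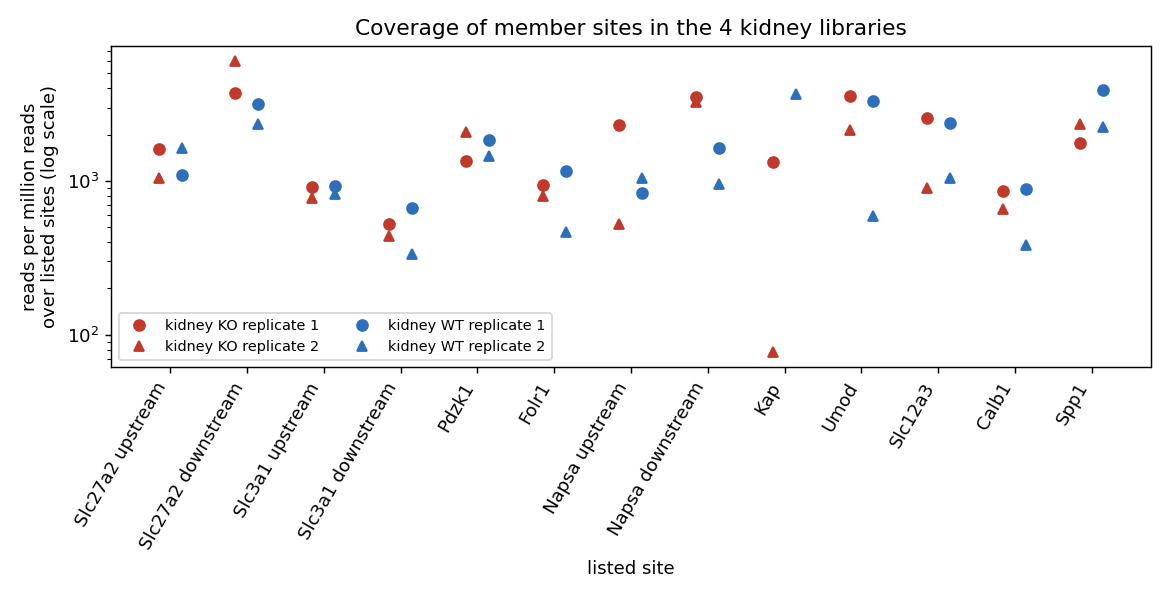
Coverage of each listed site in the 4 kidney libraries, in reads per 1000000 reads over listed sites (log axis); red marks KO and blue marks WT, circles replicate 1 and triangles replicate 2. Both KO points lie above both WT points at Napsa downstream and Slc27a2 downstream, and the points overlap at the other sites with 4 values. How often all listed sites separate in this way was not counted, so the separation is a description only. Kap spans 76.9 to 3687 rpm with no point for WT replicate 1.

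Other genes of the same segments were read from a list of 63 tubule genes, 33 of which had a listed site (60 sites, 27 of them passed in a kidney library). In kidney 40 of these sites in 26 genes could be tested, and 0 were called, with 0 at an unadjusted p under 0.05. In the coverage test 0 of 27 list genes were called, with 2 lower and 2 higher at an unadjusted p under 0.05. Of 18 proximal tubule genes, 17 had a log2 fold change below 0, against 3030 of 6196 over all genes. The proximal median was -0.69, against 0.02 over all genes. Genes of a list were read in the same libraries, so they do not count as replicates. The other lists had medians above 0, with a value of 0.84 over 3 genes of the thick ascending limb (2 of them above 0), 0.64 over 5 of the distal convoluted and connecting tubule (4 above 0), and 1.86 for the 1 collecting duct gene. Among the proximal genes, the phosphate transporter gene Slc17a1 had -1.89. The proximal count and median were 18 of 18 and -1.50 without kidney KO replicate 1, 14 of 19 and -0.35 without kidney KO replicate 2, 16 of 18 and -1.07 without kidney WT replicate 1, and 11 of 18 and -0.32 without kidney WT replicate 2. Over all genes, 3265 of 6215, 3524 of 6835, 3086 of 6693 and 2946 of 6492 were below 0 in these settings. Summed coverage in kidney WT replicate 2 was 448 rpm for the thick ascending limb list, against 1717 rpm or more in the other kidney libraries. For the distal list it was 2813 rpm, against 7404 rpm or more. The proximal list went the other way, at 10995 rpm against 9634 rpm or less. The 5 proximal members tested had values of -0.24 (Slc3a1), -0.09 (Pdzk1), 0.03 (Folr1), 0.70 (Slc27a2) and 1.27 (Napsa).

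Heart KO replicate 2 read every one of the 13 sites, whereas the other 3 heart libraries had no value at any of them. It held 2982 member reads (2423 rpm), between 59 and 767 per site, which was 5.67% to 49% of the mean kidney coverage in rpm with a median of 10.5%. The 49% was at Kap, where the missing value of kidney WT replicate 1 was counted as 0 in the mean. The tubule markers summed to 2149 rpm in heart KO replicate 2, against 0 in heart KO replicate 1 and 0 in both WT hearts. Some other markers were also higher in heart KO replicate 2 than in the other hearts, and some were not. Podocyte markers were at 144 rpm, against 237 rpm in KO replicate 1. Spleen markers were at 24.4 rpm, against 66.2 rpm in WT replicate 1. Small intestine markers were at 0 in all hearts. Endothelium markers, at 580 rpm, and stroma markers, at 364 rpm, were close to KO replicate 1, at 563 and 315 rpm. In heart KO replicate 2 the liver markers summed to 267 rpm, against 0 in the other 3 heart libraries. Blood and immune markers were at 1043 rpm, against 248 rpm in KO replicate 1 and 160 to 326 rpm in WT hearts. The heart markers of this library, of which 2 of 5 had a listed site, were at 659 rpm. They were at 556 rpm in KO replicate 1 and, at the least, 113 rpm in WT hearts. A further 4 sites of list genes (in Fbp1, Slc22a12, Cubn and Slc13a3) had at least 200 reads in every kidney library and no value in the other 3 hearts, and all 4 had 20 to 81 reads in heart KO replicate 2. The levels there were within counting error of those in kidney at 12 sites: 18 of 172 (10.5%, 6.32% to 16.0%) at Napsa upstream, and 0 of 2043 C reads, an upper limit of 0.147%, over the 11 sites besides it and Kap. At Kap the 39.9% was above every kidney value. What put these reads in the library was not tested.

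Spleen WT replicate 2 held 830 member reads at 11 sites in 8 genes, whereas the other 3 spleen libraries read only the Napsa sites. It passed 6 of the 13 sites (Umod, Slc12a3, Slc27a2 downstream, Calb1, Folr1 and Spp1), at 15.4% to 41.4% on 24 to 91 reads. It also passed 4360 sites of the whole table. Its coverage of the member sites was 0.344% to 6.85% of the kidney mean, with a median of 0.995%. Without this library and heart KO replicate 2, 6 of the 13 sites would still have been passed in at least 1 library.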

How the data were processed

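The members and the gene lists were chosen with earlier results of these data known. The deposited table gives, per site and library, counts of coverage and of unconverted C reads, their ratio as a fraction, the authors' mark of a passed site, and a nonconversion rate, also a deposited fraction whose definition the header does not give. The authors made it from mRNA bisulfite reads with their RNA-m5C pipeline on mm10; neither a pipeline version nor an aligner is named in any source read here. Listed sites had at least 10 reads where a value is given, and passed sites at least 20 reads, 3 C reads and a level of 0.1. The 40 columns of p-values and signal were not used.

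Levels were tested in edgeR 4.0.16 (R 4.3.3; glmQLFit and glmQLFTest on C and converted counts, an intercept per library and a methylation term per genotype, dispersion without trend) over all sites with at least 20 reads in the 4 libraries of a tissue, and over those that also had, in KO or in WT, 2 C reads in each library and a mean level of 0.05. Coverage per gene was tested in edgeR with TMM. P-values were two-sided, Benjamini-Hochberg adjusted over all features tested, threshold 0.05. limma 3.58.1 was run on logit levels (0.5 added) and DESeq2 1.42.0 on coverage. The scripts were tested on simulated data: 100% of 100 simulated kidney sites (0.02 in KO, 0.3 in WT) and 76.5% of 200 simulated 4-fold coverage changes were recovered. False calls numbered 1 and 10. The spread between simulated libraries was set in advance and not fitted to these data. The shares therefore do not measure how often a real difference would be called here. Positions, exons and sequences came from GENCODE M21 on GRCm38, the same build. All 10 members were named, and every site of each. The values of 1 gene of the tubule lists are not reported here.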

Additional observations from a re-analysis of the deposited data

Results flagged for a closer look

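Heart libraries entered no comparison of the member sites, because no member site had a value in all 4 of them. In heart KO replicate 2 the member sites held 2982 reads, against 0 in both WT hearts. At the Kap site of that library 39.9% of reads were unconverted (306 of 767), and at Napsa upstream 10.5% (18 of 172), with no value in WT hearts at either. These values were singled out because they are a signal in a library outside the comparisons, with member reads above the 0 of the WT hearts.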

How the results depend on the processing

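The count of member sites or genes called between KO and WT was 0 in each comparison, and 0 in 55 of 56 alternatives (minimum of 10 or 50 reads, limma, the replicate number as a block, a dispersion trend, DESeq2, another scaling or summing of coverage, and leaving out each library). The exception was Fisher's exact test on summed counts in kidney, with 1 member site called, Napsa upstream, and 1391 sites called in all. Without kidney KO replicate 1, with KO replicate 2 assumed to vary like the WT libraries, 1035 of all kidney sites, 1733 of those meeting the criteria and 0 members were called. Without liver WT replicate 1, 307 of all liver sites and 0 members were called. Of 293 single member values under alternatives, 29 turned sign, none of them called.

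No sources tie the replicate numbers to animals. The same-numbered kidney libraries deviated with a correlation of -0.10 in coverage and -0.01 in level; with the replicate number as a block, 0 member sites and 0 member genes were called, with 2 of all kidney sites, and with crossed numbers as a block 0 genes were called. The dispersion trend, the crossed block and the setting without 2 libraries were chosen after seeing the data.

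Pooling the reads of both Napsa sites gave a kidney level of 2.65% in KO and 3.64% in WT, and averaging the sites gave 5.02% in KO and 4.26% in WT, so the order of the genotypes turned. Values of at least 10% numbered 14, and 7 with a minimum of 50 reads. Without spleen WT replicate 2 and heart KO replicate 2, 6 of the 13 sites were passed. Scaling coverage to all reads over listed sites moved the median log2 fold change of all genes to 0.15, against 0.02, and that of the proximal list to -0.48.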
